A study of Rattus norvegicus with 6 samples.

Results

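The genes described here encode 7 structural proteins of myelin, the membrane sheath that Schwann cells, the glia of peripheral nerves, wrap around axons. They were taken by symbol (Mbp, Mag, Mal, Pmp2, Cnp, Ncmap and Mog) from the 17327 genes in the count files, and 6 of the 7 passed the filter on low counts together with 9740 genes in all. RNA was measured in primary Schwann cells from sciatic nerves of adult female Wistar rats, in 3 mock samples, which received the buffer of the ligand (PBS with BSA), and 3 samples stimulated for 6 h with 10 nM soluble recombinant NRG1β1 (NRG1). NRG1 is a growth factor that acts on ErbB receptors of Schwann cells. Both groups had been grown with glial growth factor at 63 ng/mL, starved for 18 h in 2% serum, and kept throughout in 10 μM forskolin, which raises cAMP and with it the expression of myelin genes in cells that have lost their axons. In the paper, the growth medium held the same recombinant NRG1β1 and the starving medium did not. Mock cells had thus been exposed to NRG1 before starvation, and the comparison is of NRG1 given again with NRG1 withdrawn. Each of 3 independent cell preparations, called cultures 1, 2 and 3 after the numbers in the labels, gave 1 mock and 1 NRG1 sample. No axons were present, so the levels are those of cells in culture and not of myelinating cells in a nerve.

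Myelin is built from stacked membrane whose layers are held together by a small set of abundant proteins. Myelin basic protein (Mbp) and the fatty acid binding protein Pmp2 sit on the cytoplasmic faces of compact myelin, and Mal is a proteolipid of lipid-rich membrane domains. Mag is an adhesion molecule of the membrane next to the axon, Cnp is an enzyme of the cytoplasmic channels that stay open in the sheath, and Ncmap is a membrane protein of non-compact peripheral myelin. Mog is best known from the outer surface of central myelin, which is made by oligodendrocytes.

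Promoter sequence from RefSeq (build GRCr8) was found for 5 of the 7 genes, and not for Pmp2 and Mog. Shown are the 250 bases before an annotated start for Mag and Mal, whose counts fell after NRG1, and for Cnp, whose change did not pass the test. Capitals mark matches, on either strand, to the letters GCGTGGG (core of the sites of EGR factors such as Egr2), ACAAAG or ACAATG (sites of SOX factors), GGGCGG (SP factors), TATAAA and TGACGTCA (the cAMP response element). The windows are chr1:95291045-95291294 on the minus strand for Mag, chr3:135341424-135341673 on the minus strand for Mal and chr10:86011254-86011503 on the plus strand for Cnp.
Mag: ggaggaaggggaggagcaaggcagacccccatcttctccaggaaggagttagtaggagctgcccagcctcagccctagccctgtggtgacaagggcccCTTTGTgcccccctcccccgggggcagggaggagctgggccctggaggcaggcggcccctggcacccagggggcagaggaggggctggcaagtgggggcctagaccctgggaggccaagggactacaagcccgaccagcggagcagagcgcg
Mal: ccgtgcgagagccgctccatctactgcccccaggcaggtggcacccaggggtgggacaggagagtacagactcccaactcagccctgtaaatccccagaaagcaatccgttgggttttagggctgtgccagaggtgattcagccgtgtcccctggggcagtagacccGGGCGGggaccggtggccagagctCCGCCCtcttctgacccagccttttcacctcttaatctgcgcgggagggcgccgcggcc
Cnp: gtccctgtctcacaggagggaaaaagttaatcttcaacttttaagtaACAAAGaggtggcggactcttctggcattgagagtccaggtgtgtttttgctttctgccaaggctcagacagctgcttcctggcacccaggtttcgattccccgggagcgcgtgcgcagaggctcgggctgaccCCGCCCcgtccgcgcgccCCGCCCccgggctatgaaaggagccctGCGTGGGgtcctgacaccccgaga
The EGR letters occurred in the Cnp window only among these 3, at 24 bases before the start, and in 3.67% of 33469 promoter windows of this length. A SOX match of the form ACAAAG was in the Mag and Cnp windows and in 16.3% of all windows, and the SP letters were in the Mal and Cnp windows and in 30.5% of all. The other SOX form, TATAAA and the cAMP element had no match in these 3 windows and were in 11.1%, 12.9% and 1.59% of all windows. Windows of Mbp, which also fell, and of Ncmap were searched and are not shown. Of the 2 Mbp windows, the window of entry 1 held only SP letters, and that of entry 2 held both SOX forms and SP letters. The Ncmap window held only SP letters. No matches overlapped each other, and they describe letters and not binding.

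Counts on genes ranged from 6821590 to 15475018 per library, and 3 counts, taken as the floor, corresponded to 0.19 to 0.44 CPM (counts scaled to a library of 1000000 by TMM). Culture 1 stood apart from the others before any comparison of conditions. Of 8 fibroblast markers, Dcn, Lum and Thy1 had no count in cultures 2 and 3, while Dcn stood at 598 CPM in the mock and 419 CPM in the NRG1 sample of culture 1, and Thy1 at 1241 and 1121 CPM. Pdgfra was at 851 and 811 CPM in culture 1 and between 0.15 and 1.61 CPM elsewhere. Col1a2 was at or near 0 in every library and Pi16 was low. The summed level of the 8 markers ran from 14057 to 52267 CPM in mock and from 13686 to 56587 CPM in NRG1 samples, most of it from Col1a1 and Col3a1. The highest values in both groups were those of culture 1, and NRG1 sample 2 lay below mock sample 3. The log2 ratio of the sum was 0.11, -0.71 and -0.01 in cultures 1, 2 and 3. Col3a1 had log2 ratios of 0.05, -1.59 and -1.38 in cultures 1, 2 and 3 (log2 fold change -0.98, edgeR adjusted p = 0.012), and its part in the changes of the myelin genes was not tested. The Schwann cell transcription factor Sox10 was at 387 and 468 CPM in culture 1 and between 1062 and 1257 CPM in the other 4 libraries. In bulk RNA, fewer cells of a type and less RNA per cell cannot be told apart. For 8 Schwann cell markers the summed level was 3399 to 7498 CPM in mock and 3233 to 6988 CPM in NRG1 samples, with Cdh19 lower past both thresholds and S100b by the adjusted p alone. The 8 macrophage markers summed to at most 4.58 CPM, with Ptprc, Adgre1 and Cd163 at 0. The 6 endothelial markers summed to 9.80 to 15.2 CPM in mock and 6.40 to 8.87 CPM in NRG1 samples, nearly all from Tek, with Pecam1, Cdh5 and Emcn at 0. For 5 perineurial markers the sum was 114.5 to 196.5 CPM in mock and 108.0 to 129.9 CPM in NRG1 samples. Nearly all of it came from Itgb4, which fell past both thresholds, and Slc2a1, which rose by the adjusted p alone. Lypd2 was at 0, and Cldn1 and Krt19 had 11 and 2 counts over the 6 libraries.

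NRG1 lowered the counts of Mal, Mag and Mbp in every culture, by about 3.30-fold, 2.25-fold and 2.10-fold, while Cnp, Pmp2 and Mog did not pass the test. To count as down-regulated, a gene needed a log2 fold change under -1 and an adjusted p no higher than 0.01 in edgeR's quasi-likelihood test with the culture as a block and Benjamini-Hochberg adjustment over the 9740 genes. Of the 7 genes, 3 were down-regulated and none was up-regulated (1.91% and 1.56% of all genes tested). By the adjusted p alone the count was the same 3 genes (5.51% of all genes tested fell on that measure), and 4 with Pmp2 when no filter on low counts was used or culture 1 was left out. Lower values in all 3 cultures were seen for 5 of the 6 tested members, against 29.9% of all genes tested. The median log2 fold change of the 6 tested members was -0.84, and that of all genes tested was -0.03.

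Mal, the proteolipid of lipid-rich membrane domains, changed most among the members. Its levels were 9.28, 28.2 and 12.6 CPM in mock samples 1, 2 and 3, and 2.09, 8.09 and 4.71 CPM in NRG1 samples 1, 2 and 3. Every NRG1 sample lay below every mock sample, a separation that 9.86% of all genes tested showed in this direction, and that no other tested member showed. The mean over mock samples was 16.7 ± 10.1 CPM (SD, n = 3), and over NRG1 samples it was 4.96 ± 3.01 CPM (SD, n = 3). Its log2 fold change was -1.72 (SE 0.20, edgeR adjusted p = 5.4e-05), rank 33 of the 9740 genes from the lowest fold change. The ratio of NRG1 to mock was 0.225 in culture 1 (95% exact binomial interval 0.122 to 0.392, from 71 and 16 counts), 0.286 in culture 2 (0.215 to 0.377) and 0.374 in culture 3 (0.279 to 0.496). These intervals cover counting error only, and those of cultures 1 and 3 overlap, so an order of the cultures could not be read at this depth.

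Mag, the adhesion molecule of the membrane facing the axon, was at 15.0, 41.8 and 16.0 CPM in mock samples 1, 2 and 3 and at 7.32, 15.7 and 7.93 CPM in NRG1 samples 1, 2 and 3. Culture 2 was the highest in both conditions, and its NRG1 sample lay between the mock samples of cultures 1 and 3, so the groups overlapped although each culture fell. The log2 fold change was -1.17 (SE 0.17, 95% interval -1.52 to -0.81, edgeR adjusted p = 0.00023). The mock samples averaged 24.3 ± 15.2 CPM (SD, n = 3), and the NRG1 samples averaged 10.3 ± 4.68 CPM (SD, n = 3). Within cultures 1, 2 and 3 the log2 ratio was -1.02, -1.40 and -0.99.

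Mbp, which holds the cytoplasmic faces of compact myelin together, was at 7.71, 42.3 and 38.1 CPM in mock samples 1, 2 and 3 and at 3.92, 18.6 and 18.8 CPM in NRG1 samples 1, 2 and 3. Culture 1 was the lowest in both conditions, with a mock level below the NRG1 levels of the other cultures, so the groups overlapped. The mock samples spanned 5.48-fold, more than the change within any culture. The log2 ratio within cultures 1, 2 and 3 was nonetheless close, at -0.94, -1.17 and -1.01. The log2 fold change was -1.07 (SE 0.15, 95% interval -1.40 to -0.74, edgeR adjusted p = 0.00024). Counts of Mbp are pooled over all its transcripts in the files, so those for the classic myelin proteins and the longer Golli forms were not told apart.

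**Figure D1:**
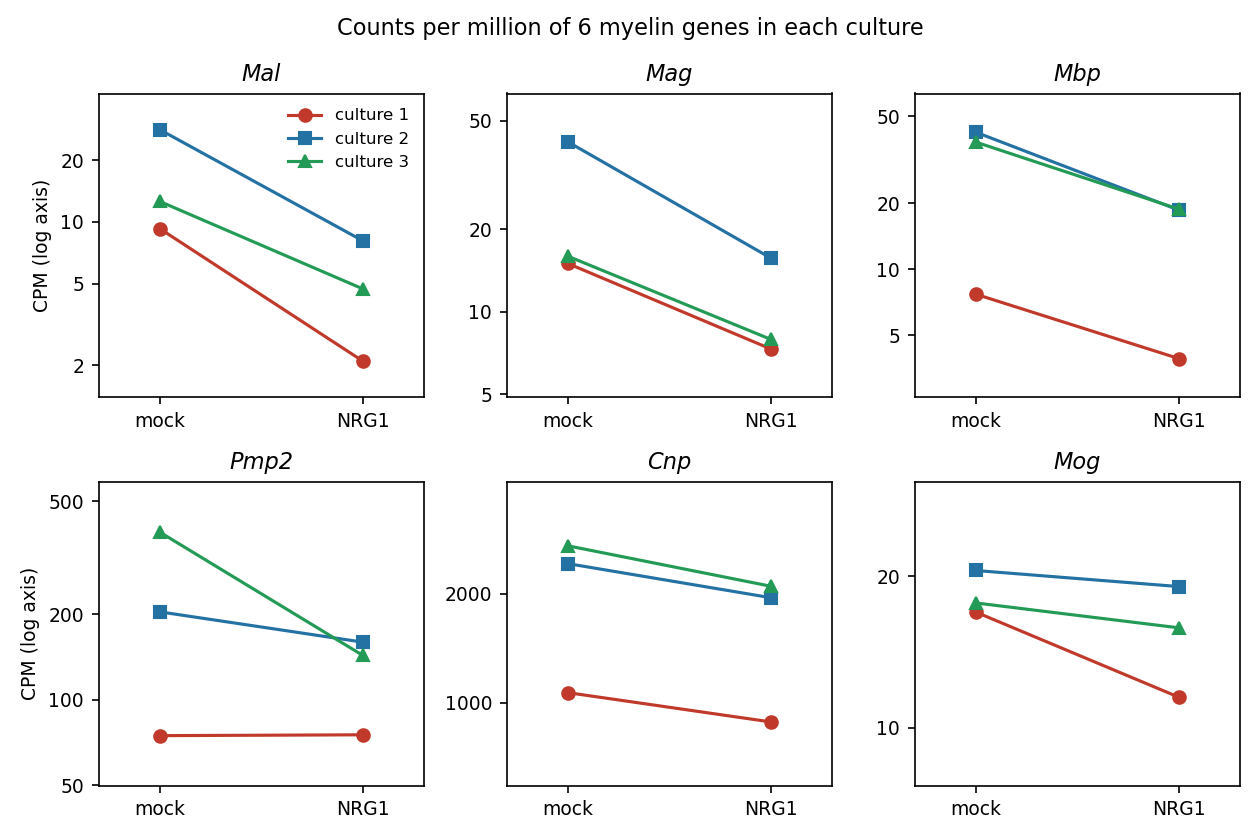
CPM (log axis, a separate range in each panel) of 6 myelin genes in the mock and NRG1 sample of each culture, with a line joining the samples of a culture. The lines of Mal, Mag and Mbp fall alike in the 3 cultures from unequal starting levels, Pmp2 falls steeply only in culture 3, and Cnp and Mog fall little.

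Cnp, the enzyme of the cytoplasmic channels, had 115666 counts over the 6 libraries and was measured with the smallest counting error of the members. Its levels were 1066, 2423 and 2714 CPM in mock samples 1, 2 and 3 and 885, 1950.1 and 2098 CPM in NRG1 samples 1, 2 and 3. Culture 1 was again the lowest, and each NRG1 sample lay slightly below its own mock sample. The log2 ratios were -0.27, -0.31 and -0.37 in cultures 1, 2 and 3, a narrow range. As ratios of NRG1 to mock, their 95% exact binomial intervals were 0.804 to 0.857, 0.788 to 0.822 and 0.761 to 0.785. These cover counting error only. The estimate was a log2 fold change of -0.32 (95% interval -0.60 to -0.04, edgeR adjusted p = 0.092), which did not pass after adjustment and whose interval does not reach -1.

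Pmp2, the fatty acid binding protein of compact myelin, differed between cultures in its response. Mock samples 1, 2 and 3 were at 74.9, 204 and 390 CPM, and NRG1 samples 1, 2 and 3 at 75.4, 159.8 and 143.5 CPM. The mock sample of culture 3 stood above all other libraries, and culture 1 showed almost the same level in both conditions. The ratio of NRG1 to mock was 1.01 in culture 1 (95% exact binomial interval 0.895 to 1.13), 0.782 in culture 2 (0.726 to 0.843) and 0.368 in culture 3 (0.350 to 0.387), and these intervals do not overlap. The log2 fold change was -0.61 (95% interval -1.05 to -0.18, edgeR adjusted p = 0.042), over the threshold of 0.01. Culture 3 set this value, since without culture 3 it was -0.16 (adjusted p = 0.64), and without culture 1 it was -0.90 (adjusted p = 2e-05). With no filter on low counts its adjusted p in edgeR was 0.00049 (log2 fold change -0.63), and in DESeq2 with the replicate block it was 0.42 (log2 fold change -0.58). With 1 sample per condition in each culture, the difference between cultures has no test over replicates.

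Mog, known from central myelin, had levels of 17.0, 20.6 and 17.7 CPM in mock samples 1, 2 and 3 and of 11.5, 19.1 and 15.8 CPM in NRG1 samples 1, 2 and 3. It was the member with the smallest spread between mock samples, 1.21-fold from lowest to highest. The log2 fold change was -0.26 (95% interval -0.61 to 0.08, edgeR adjusted p = 0.26). Other genes of oligodendrocytes were absent or nearly so: of the 12 markers, Mobp, Opalin and Nkx2-2 had no count in any library, Olig1 had 7 counts and Olig2 had 1 count over the 6 libraries, and only Mog and Myrf passed the filter. The 12 summed to 148.3 to 166.1 CPM in mock and 100.3 to 154.5 CPM in NRG1 samples, most of it from Myrf. In the RefSeq annotation of build GRCr8 the span of Mog overlaps that of Zfp57, a zinc finger gene with 156 to 485 counts per library. The counting is not stated to have used strand, so the values of Mog are uncertain to that extent. Spans of Mbp, Mag and Mal overlap non-coding RNA genes that have no row in the files.

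Ncmap, of non-compact peripheral myelin, had a single count in mock sample 3 and 0 in the other 5 libraries. In build GRCr8 its span overlaps that of a protein-coding gene, LOC134487010, which is not among the counted genes. Whether the missing counts come from the cells or from the counting was not tested. No fold change is given, since every library was under the floor of 3 counts.

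**Figure D2:**
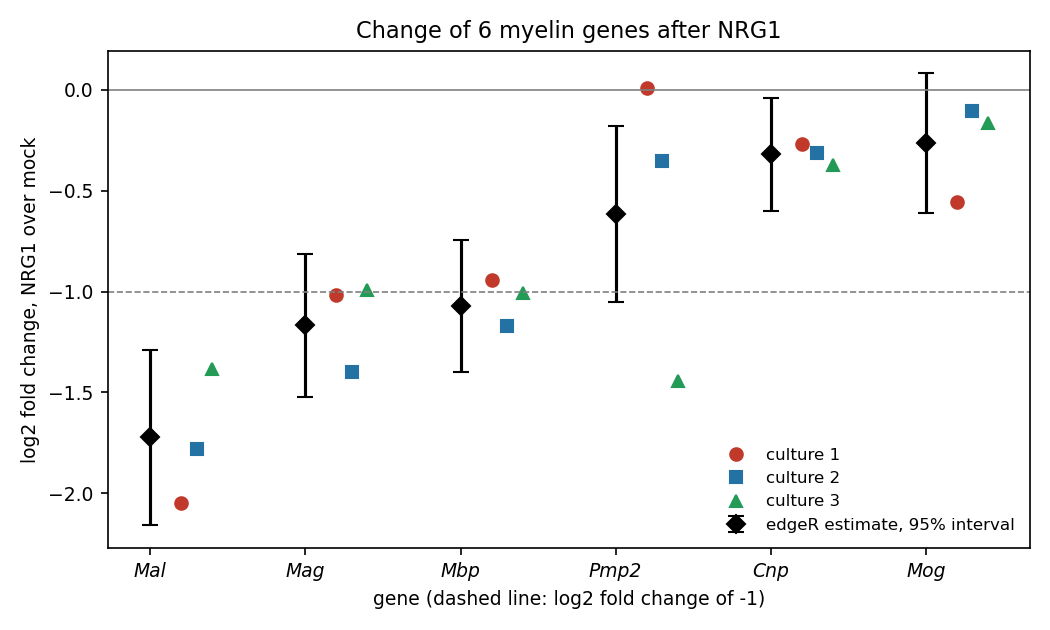
Log2 fold change of NRG1 over mock for 6 myelin genes. Diamonds with bars are the edgeR estimate with its 95% interval and the coloured points are the log2 ratios within cultures 1, 2 and 3, so that Pmp2, from 0.01 to -1.44, shows the widest spread between cultures and Cnp the narrowest.

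The genes called down-regulated were then set against the tested members that were not called. Within each library pair, log2 ratios of the same culture were subtracted. The scaling of the libraries cancels in this difference. Mal, Mag and Mbp each fell more than Cnp in 3 of 3 cultures, by a mean of 1.42 ± 0.39, 0.82 ± 0.24 and 0.72 ± 0.12 (SD, n = 3 pairs) on the log2 scale. Against Mog they also fell more in 3 of 3 cultures, by 1.46 ± 0.23, 0.86 ± 0.42 and 0.77 ± 0.35 (SD, n = 3 pairs). Against Pmp2 the direction held in 2 of 3 cultures only, since in culture 3 the log2 ratio of Pmp2 was -1.44, beside -1.38 for Mal. Among the 3 genes called, Mal fell more than Mbp and more than Mag in 3 of 3 cultures, by 0.70 ± 0.38 and 0.60 ± 0.37 (SD, n = 3 pairs), while Mbp and Mag differed by 0.10 ± 0.12 (SD, n = 3 pairs). The exact sign-flip permutation test, two-sided, cannot give a p below 0.25 with 3 pairs, and for the 15 pairs of members compared the smallest adjusted p was 0.47. These differences are therefore given by their size and direction, and none passes a test. The called and not called sides were formed from these same samples. A larger fall on the called side thus follows in part from that choice.

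Expressed per 100 reads of Sox10 in the same library, part of the spread between cultures was smaller. Cnp stood at 275, 222 and 231 reads per 100 Sox10 reads in mock samples 1, 2 and 3, although its CPM in culture 1 was under that of both other cultures. Mag stood at 3.88, 3.84 and 1.36 in mock samples 1, 2 and 3, so on this scale culture 3 was the low one. Mbp remained lowest in culture 1, at 1.99 against 3.88 and 3.25. Mog was highest in culture 1, at 4.39 against 1.88 and 1.51, the reverse of the order of Sox10 itself. The falls of Mal, Mag and Mbp on this scale had mean log2 ratios of -1.90 ± 0.47, -1.26 ± 0.14 and -1.17 ± 0.07 (SD, n = 3 pairs). Those of Pmp2, Cnp and Mog were -0.71 ± 0.72, -0.43 ± 0.14 and -0.39 ± 0.40 (SD, n = 3 pairs), and all 6 members were lower in 3 of 3 cultures. Pmp2 in culture 1, with a log2 ratio of 0.01 on CPM, had -0.26 on this scale, where the log2 ratio of Sox10 itself was 0.27. Sox10 had a log2 fold change of 0.11 (edgeR adjusted p = 0.58) after NRG1. Of the 8 Schwann cell markers, S100b and Cdh19 fell by the adjusted p, and the other 6 did not pass. Their log2 ratios in cultures 1, 2 and 3 were -0.77, -0.26 and -0.70 for S100b and -1.30, -1.28 and -0.73 for Cdh19. The members were not scaled to these genes, so the falls of all 6 members hold relative to Sox10.

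**Figure D3:**
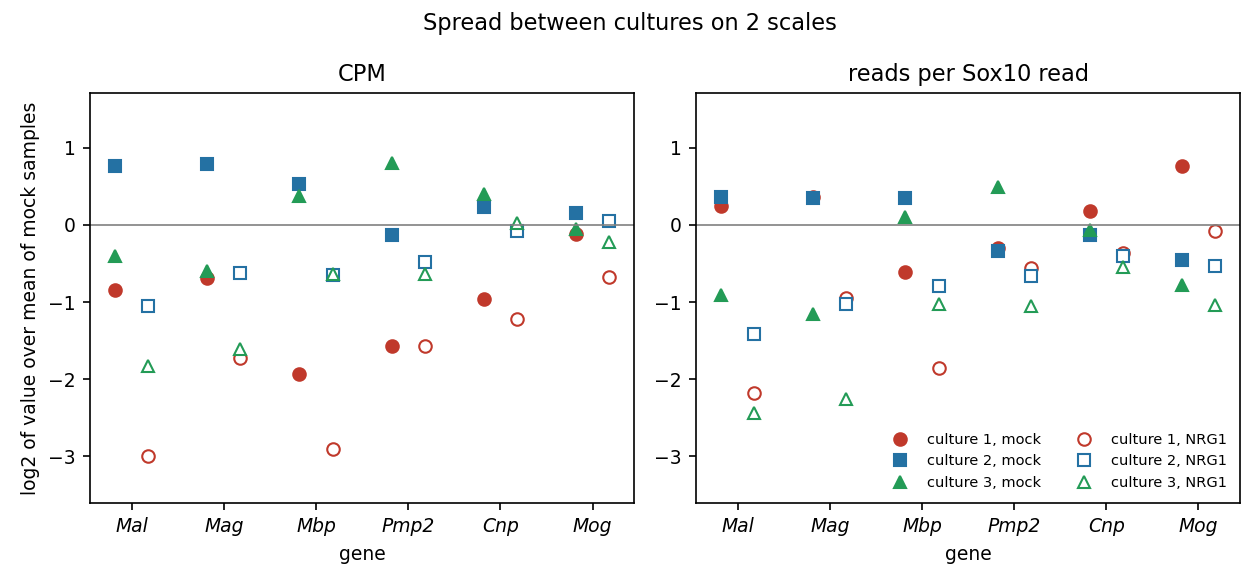
Log2 of each value over the mean of the 3 mock samples, for CPM (left) and for reads per Sox10 read (right), with filled symbols for mock and open symbols for NRG1. The mock samples of Cnp lie closer together on the right than on the left, and Mbp of culture 1 is the lowest on both.

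Across the 6 libraries the members followed different orders of the cultures. On log2 CPM, Mag and Mal had a Pearson r of 0.95, and Mbp and Cnp of 0.98, whereas Mag and Cnp had 0.51 and Mag and Pmp2 0.45. Mag and Mal were highest in culture 2, while Mbp and Cnp were high in cultures 2 and 3 and low in culture 1. These 6 points share cultures and are given as a description. Among the 3 tested genes closest to Mal were Prss12 and Pmp22 (r of 0.996 and 0.991), of which Pmp22 encodes another compact myelin protein. The closest to Mag were Mid1, Mme and Slc30a5 (0.991, 0.983 and 0.983), and to Mbp Ppp1r15a, MGC95210 and LOC500124 (0.998, 0.997 and 0.996). For Cnp they were Lrrc4b, Nr4a1 and Pcdhb10 (0.999, 0.999 and 0.998), for Pmp2 Cdk2ap2, Tmem192 and Gng7 (0.993, 0.990 and 0.989), and for Mog Cep76, Fbxo11 and Apool (0.995, 0.990 and 0.985).

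Other proteins of the sheath also included genes that fell and genes that did not pass. Of 15 further genes of the myelin sheath and paranode, 14 were tested and 4 were down-regulated past both thresholds, beside 1.91% of all genes tested. These were Drp2 and Prx of the dystroglycan complex, Cldn19 of tight junctions and Pmp22 of compact myelin, with log2 fold changes of -2.40, -1.01, -1.19 and -1.57. Drp2 rested partly on culture 2, with log2 ratios of -1.29, -3.47 and -1.59 in cultures 1, 2 and 3, and came to -1.58 without replicate 2. Prx was just past the threshold and came to -0.81 without replicate 2 and -0.94 without replicate 3. Gldn, a protein that gathers nodal components, and the tetraspanin Cd82 rose by the adjusted p alone (0.80 and 0.58, on a measure by which 6.31% of all genes tested rose). The other 8 did not pass, among them Gjb1, a gap junction protein of non-compact myelin, with a log2 fold change of -0.03 (edgeR adjusted p = 0.92), and the tetraspanin Cd9 with 0.09 (edgeR adjusted p = 0.65). The median log2 fold change of the 14 was -0.11. Of 8 genes of myelin lipid synthesis, only Fa2h, which hydroxylates fatty acids of myelin lipids, fell past both thresholds (-1.85), beside 1.91% of all genes tested. The median of the 8 was 0.10.

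Among 11 measured activators of myelin genes, Egr2 and Rxrg fell past both thresholds (log2 fold changes of -1.71 and -1.26), and the other 9 did not pass, with Sox10 at 0.11 and Pou3f1 at -0.22. Egr2 is the zinc finger factor that drives peripheral myelination. It was at 11.0, 23.1 and 21.3 CPM in mock samples 1, 2 and 3 and at 4.84, 7.86 and 4.52 CPM in NRG1 samples 1, 2 and 3. The groups did not overlap, which 9.86% of all genes tested showed in this direction. Of 9 inhibitors, 8 were tested, and Egr1 and Ednrb fell past both thresholds (-1.13 and -1.07), respectively an immediate-early factor and an endothelin receptor. Egr1 had a log2 ratio of -0.02 in culture 1 and of -1.97 and -1.46 in cultures 2 and 3, and did not pass without replicate 2 (-0.80, adjusted p = 0.038) or replicate 3 (-0.91, adjusted p = 0.035). Ednrb came to -0.88 without replicate 1. Jun, a factor opposed to Egr2, had a log2 fold change of -0.15 (edgeR adjusted p = 0.40) and Sox2 of 0.30 (edgeR adjusted p = 0.09). Pax3 had no count. Of all genes tested, 1.91% fell past both thresholds. The medians were -0.22 for the activators and -0.02 for the inhibitors. No set test was run, so these counts do not set any list apart from other genes.

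**Figure D4:**
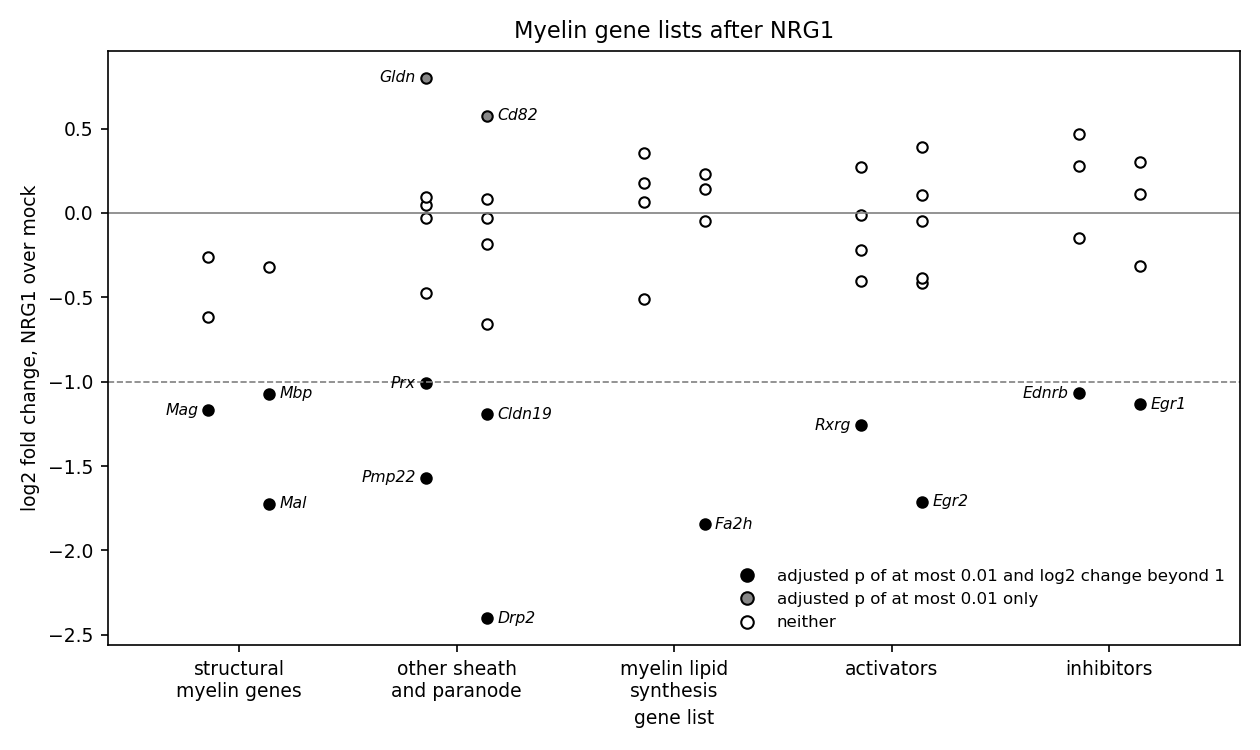
Log2 fold change of NRG1 over mock for the tested genes of 5 lists, with symbols filled by the test passed and names for genes with an adjusted p of at most 0.01. In the list of sheath and paranode proteins the values run from Drp2 at -2.40 (-1.58 without replicate 2) to Gldn at 0.80.

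The calls of Mal, Mag and Mbp rest on comparing samples of the same culture. When edgeR was run with no replicate block, 0 of the 7 genes passed (2 at an unadjusted p under 0.05), as in DESeq2 with no replicate block, and the edgeR adjusted p was 0.30 for Mal, 0.36 for Mag and 0.61 for Mbp, while their log2 fold changes were -1.74, -1.23 and -1.08. The fall was also seen without culture 1, which had the highest sum of fibroblast markers. Cultures 2 and 3 still held Col1a1, at 21477 and 13609 CPM in mock and 13404 and 13744 CPM in NRG1 samples. The part of fibroblasts in the fall was not tested. In the fit without culture 1 the same 3 genes passed, with log2 fold changes of -1.61, -1.21 and -1.09, and the adjusted p was at most 3.1e-06. When the fold change threshold was placed inside the edgeR test, 0 of the 7 passed (1 at an unadjusted p under 0.05), with an adjusted p of 0.05 for Mal and of 1 for Mag and Mbp, so a fall of more than 2-fold was not shown for any of them by that test.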

How the data were processed

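RNA from 3 mock and 3 NRG1 samples (RIN of at least 9) was selected for poly(A) and read on an Illumina NextSeq. The authors used TopHat 2.0.10 with build rn5 and htseq with RefSeq genes, and the deposited values are raw counts. Genes took 47.0% to 49.9% of the alignments per library, and the summary lines of htseq stayed out of library sizes and tests. No transcript lengths of the build were at hand, so levels were not compared between genes. Counts were filtered with filterByExpr (minimum count 10; 9740 of 17327 genes kept), normalized with TMM and fitted with edgeR 4.0.16 in R 4.3.3 (quasi-likelihood, with the replicate number as a block after the methods of the study). Standard errors are the log2 fold change over the square root of F, and 95% intervals use the moderated degrees of freedom. CPM are counts over TMM-scaled library size, and log2 CPM used a prior count of 2.

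The numbers pair the samples: across genes, deviations from the group mean correlated with r of 0.91, 0.67 and 0.81 for the same number in replicates 1, 2 and 3, and with at most 0.51 for different numbers. The smallest chi-square per degree of freedom between 2 libraries was 21.4, so each was counted as 1 sample. The members and gene lists were chosen with earlier results of these data known. Named were all members, the genes of the lists past a threshold with examples of the others, and for each member the 3 tested genes with the highest Pearson r. Zfp57 was chosen after its values were seen. Lists were matched by symbol, and Adgrg6 and Foxd3 were not analysed here. A few further genes are not reported here and were left out of the lists. Alternatives were DESeq2 1.42.0, RLE, no filter, no block, each replicate left out, an adjusted p of 0.05, the threshold inside the test (glmTreat), and, added after seeing the data, DESeq2 with no replicate block. The scripts were tested on simulated data. Promoter windows came from a RefSeq table of build GRCr8.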

Additional observations from a re-analysis of the deposited data

How the results depend on the processing

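The count of 3 down-regulated members held with DESeq2 and the replicate block, with RLE normalization, with no filter, at an adjusted p of 0.05 and without each replicate in turn (3 to 3). Without replicate 2, Mbp and Mag were only just past the fold change threshold, with log2 fold changes of -1.002 and -1.019. With no replicate block it was 0 in edgeR, as were the counts by the adjusted p alone (3 with the block), of further sheath genes (4 with the block), of the 4 myelin lists together (9 with the block) and of all genes in either direction (186 down and 152 up with the block). At an unadjusted p under 0.05 that fit gave 2 members and 1334 genes. DESeq2 with no replicate block, added after seeing the data, gave 0 members (2 at an unadjusted p under 0.05), 0 sheath genes, 1 gene of the 4 lists, and 34 genes down and 54 up in all. With the fold change threshold inside the test, the members, sheath genes and lists gave 0 (1 member at an unadjusted p under 0.05), with 9 genes down and 13 up in all. DESeq2 with the replicate block gave 123 genes down, and leaving out each replicate gave from 122 to 299 down and from 133 to 202 up. The direction of 3 differences between members turned. Leaving out each replicate gave from -0.21 to 0.039 for Cnp minus Mog (-0.04 over 3 pairs, above 0 without replicate 2 or 3), from -0.56 to 0.12 for Pmp2 minus Cnp and from -0.76 to 0.16 for Pmp2 minus Mog (both above 0 without replicate 3). For these settings the cause was not tested. With 3 pairs, and counts as low as 16 for Mal, small changes were not detectable.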
